A study of Mus musculus with 8 samples.

Results

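The ribosomal protein genes of the mouse were followed for gain of 5-hydroxymethylcytosine (5hmC) during a pulse of TET3 activity. They were taken as the protein-coding genes whose symbol begins with Rpl (large subunit) or Rps (small subunit) and a digit, without the S6 kinase genes (Rps6k) and without pseudogene symbols. This gave 85 genes, 51 Rpl and 34 Rps, among 21887 protein-coding genes of the nuclear chromosomes. Their spans in the GRCm38.p6 gene table ran from 374 to 16779 bp with a median of 3175 bp, and CpG calls were taken within 1 kb on either side. They were set against 10671 other protein-coding genes with spans in the same range, called genes of like length here. Of the 85 genes, 81 had at least 1 CpG call, while Rpl22l1, Rpl39l, Rps27 and Rps27l had none in any library.

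All libraries came from a single line of mouse embryonic stem cells in which Tet1, Tet2 and Tet3 are inactivated and a PiggyBac transposon carries the catalytic domain of mouse TET3 under doxycycline control, linked to an mCherry reporter. There were 3 libraries of untreated cells (0 h; A, B and C), 2 after 6 h (A and B) and 3 after 12 h (A, B and C) of 1 µM doxycycline, all grown with 50 µg/ml ascorbate, a cofactor that aids TET enzymes. The domain is expressed from a transgene in place of the full-length enzyme, so the cells report where this domain acts and not where native TET3 does. Whether libraries of a group are separate cultures is not stated in the labels, so each p-value below speaks only of the spread among these libraries, part or all of which may be technical. The labelled cell type could not be checked, since CpG calls carry no expression markers.

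5hmC is made by TET dioxygenases from 5-methylcytosine, so it can appear only where a cytosine was methylated first. APOBEC-coupled epigenetic sequencing (ACE-seq) shields 5hmC with glucose and deaminates cytosine and 5-methylcytosine with APOBEC3A. An undeaminated CpG call is therefore counted as 5hmC, to which the background of the assay adds. Ribosomal proteins build the large and the small ribosomal subunit together with ribosomal RNA, and their genes are short, transcribed at a high rate in dividing cells and mostly under promoters in CpG islands, which are as a rule free of CpG methylation. Many of their messages begin with a terminal oligopyrimidine tract (TOP), a C and a run of pyrimidines at the start of transcription through which mTOR signalling controls translation.

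The promoters of 4 of these genes are shown because they had the most calls of all promoter windows of the set, and because reads with 8 or more CpGs, as such stretches give, held 52.3% of the member calls at 12 h. Rpl14 encodes a protein of the large subunit, Rps3a1 one of the small subunit, Rps6 the small-subunit protein that S6 kinases phosphorylate, and Rpl10a a protein of the mobile L1 stalk of the large subunit. Each sequence runs 5′ to 3′ on the strand of the gene, from 250 bases before to 20 bases after the RefSeq start (GRCm38.p6). Capitals mark the CpGs that had a call in at least 1 library.
Rpl14 promoter, chr9:120571267-120571536, plus strand: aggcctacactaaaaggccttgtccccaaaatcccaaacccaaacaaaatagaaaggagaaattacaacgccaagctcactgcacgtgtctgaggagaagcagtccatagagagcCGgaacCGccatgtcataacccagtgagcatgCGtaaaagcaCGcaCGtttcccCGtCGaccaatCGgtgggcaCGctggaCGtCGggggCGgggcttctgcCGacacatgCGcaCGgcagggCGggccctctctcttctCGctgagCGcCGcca
Rps3a1 promoter, chr3:86142649-86142918, minus strand: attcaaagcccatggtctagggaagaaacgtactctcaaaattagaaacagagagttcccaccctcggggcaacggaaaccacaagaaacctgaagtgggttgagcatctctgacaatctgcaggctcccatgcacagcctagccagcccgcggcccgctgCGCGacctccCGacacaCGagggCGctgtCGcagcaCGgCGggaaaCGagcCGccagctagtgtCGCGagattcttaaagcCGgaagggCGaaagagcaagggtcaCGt
Rps6 promoter, chr4:86857348-86857617, minus strand: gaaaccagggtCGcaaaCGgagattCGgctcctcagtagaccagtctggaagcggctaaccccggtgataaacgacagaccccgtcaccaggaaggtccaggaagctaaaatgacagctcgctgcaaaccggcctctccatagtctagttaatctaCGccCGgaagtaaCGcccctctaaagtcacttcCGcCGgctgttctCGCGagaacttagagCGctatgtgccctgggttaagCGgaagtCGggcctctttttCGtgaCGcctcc
Rpl10a promoter, chr17:28328315-28328584, plus strand: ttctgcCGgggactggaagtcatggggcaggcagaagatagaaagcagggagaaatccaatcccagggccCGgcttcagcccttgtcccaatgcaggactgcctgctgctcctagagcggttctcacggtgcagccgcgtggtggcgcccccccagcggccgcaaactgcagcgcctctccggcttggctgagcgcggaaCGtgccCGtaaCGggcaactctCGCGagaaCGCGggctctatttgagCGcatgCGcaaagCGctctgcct

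The Rpl14 stretch held 21 CpGs, of which 19 had a call, and Rps3a1 and Rps6 held 21 each, of which 15 had a call. In Rpl10a 12 of 23 CpGs had one. Over the whole RefSeq window, which runs to 50 bases after the start, Rpl14 had 38 calls on 3 reads, of which 1 was undeaminated, in a 12 h library. Rps3a1 had 21 calls on a single 12 h read, Rpl10a 16 calls on 2 reads at 12 h and Rps6 17 calls, 3 on a 6 h read and 14 on a 0 h read. None of these was undeaminated. RefSeq promoters were found for 66 of the 85 genes, 78 windows in all, with a median of 21 CpGs, against 8 in promoters of other genes of like length and 13 in those of all protein-coding genes. A TOP-like start, taken as C at the first transcribed base followed by 4 bases that are each C or T on the strand of the gene, stood in 14 of the 78 windows (17.9%), against 2.51% of 32851 promoters in the RefSeq table. Rpl14 and Rps6 had it and Rps3a1 and Rpl10a did not. The count depends on the annotated start to the base, and windows of the same gene can differ, as those of Rpl35a and Rps21 did. A window without it therefore does not show that the gene lacks a TOP.

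All 8 libraries together gave 1806 calls on 364 reads in the ribosomal protein genes. The whole libraries held 75023 to 485941 CpG calls, and no member had 10 calls in every library, so levels are given for the pooled set and for single genes only as descriptions. Reads on ribosomal protein genes carried 4.96 calls on average, against 3.42 on genes of like length, and calls were denser along the genes (3.66 against 1.92 per kb). At 12 h, reads with 8 or more CpGs held 44.1, 60.6 and 45.7% of the member calls in A, B and C, against 34.4, 32.9 and 33.8% of the calls in genes of like length. In genes of like length the level at 12 h was 26.3% ± 2.04 on reads with 1 to 3 CpGs and 7.56% ± 1.60 on reads with 8 or more (SD, n = 3), so each member level is set beside an expected level. It is the level that genes of like length had in the same library, weighted to the members' mix of CpGs per read and of gene length. The difference between the member level and the expected level is called the deviation.

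Undeaminated calls in ribosomal protein genes were more frequent in every 12 h library than in any untreated one, yet at 12 h their number was 0.453 times that expected from genes of like length and CpG class. Untreated libraries had 0 of 126 (A), 1 of 106 (B) and 0 of 72 (C) member calls undeaminated, where a count of 0 allows up to 2.38% in A and 4.17% in C (3 counts of the total). The 6 h libraries had 3 of 97 (3.09%, A) and 15 of 358 (4.19%, B). The 12 h libraries had 35 of 408 (8.58%, A), 17 of 510 (3.33%, B) and 15 of 129 (11.6%, C). The 12 h libraries all lay above the untreated ones, but 12 h B lay between the 6 h libraries. The mean level was 7.85% ± 4.20 (SD, n = 3) at 12 h and 0.314% ± 0.545 (SD, n = 3) at 0 h, a difference of 7.53 percentage points. A two-sided exact permutation test gave p = 0.1, the smallest value 3 libraries against 3 can give (0.188 after Benjamini-Hochberg adjustment over the 15 tests made here). At 6 h the mean was 3.64% ± 0.776 (SD, n = 2), 3.33 points above 0 h (exact permutation p = 0.2, the smallest for 2 libraries against 3, 0.25 adjusted). The 12 h mean exceeded the 6 h mean by 4.21 points with overlapping libraries (exact permutation p = 0.4, also 0.4 adjusted).

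Over the 8 libraries the level increased with hours in doxycycline, with Pearson's r = 0.836 (exact permutation p = 0.00714, 0.0804 adjusted) and Spearman's rho = 0.887 (exact permutation p = 0.0107, 0.0804 adjusted). The smallest p of the 560 arrangements is 0.00357. All 0 h and 12 h libraries lie equally far from the median hour, so every pair of them was left out in turn. Pearson's r then ran from 0.737 to 0.982, and exact p was 0.0667 without any pair of 0 h libraries and without 12 h A and C.

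At 6 h the members stood close to the expected level and at 12 h below it. The expected level was 14.2, 13.3 and 17.2% in 12 h A, B and C, and the deviation was -5.64, -9.95 and -5.55 points, so each 12 h library lay below. In the untreated libraries the deviation was -1.33, 0.336 and -0.809 points, and none of them reached the 12 h values. The mean deviation was -7.05 ± 2.52 points at 12 h and -0.602 ± 0.853 at 0 h (SD, n = 3 each), a difference of -6.44 points (two-sided exact permutation p = 0.1, 0.188 adjusted). At 6 h the deviation was 0.503 and 0.612 points, and the 12 h mean was lower by 7.60 points, with no overlap (exact permutation p = 0.2, 0.25 adjusted). In calls, 1 undeaminated call stood against 2.91 expected at 0 h, 18 against 15.3 at 6 h and 67 against 148 at 12 h. The deviation is in percentage points, and a level near 0 leaves little room below it: on the logit scale the 12 h minus 0 h difference was -0.162 (exact permutation p = 1), with 0.5 added to each count. Against genes of like length whose promoters are as CpG-rich, weighted also by distance to the nearest gene end, the 12 h minus 0 h difference was -3.62 points (exact permutation p = 0.2).

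**Figure D1:**
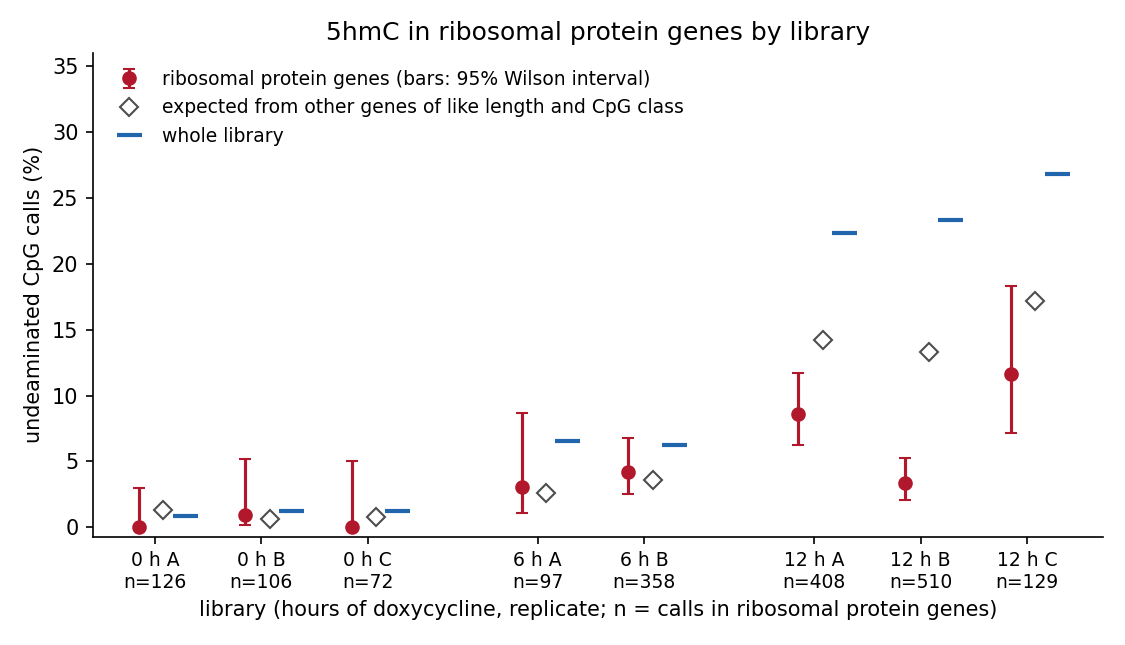
Undeaminated CpG calls in percent (vertical axis) for each library, ordered by hours of doxycycline, with red points for ribosomal protein genes and their 95% Wilson intervals, open diamonds for the level expected from other genes of like length and CpG class, and blue dashes for the whole library. The 12 h points at 8.58, 3.33 and 11.6% lie below their diamonds at 14.2, 13.3 and 17.2%, while the 6 h points lie within 1 point of theirs.

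The intervals cover counting error only, and since calls on the same read are not independent they are too narrow. The pooled member level was 0.329% (95% Wilson interval 0.0581 to 1.84%) at 0 h, 3.96% (2.52 to 6.17%) at 6 h and 6.40% (5.07 to 8.05%) at 12 h. Counted by reads, 1 of 66 reads on ribosomal protein genes carried an undeaminated call at 0 h (1.52%), against 2.65% of the reads on genes of like length. At 6 h these were 12 of 75 (16.0%), against 13.9%, and at 12 h 50 of 223 (22.4%), against 39.4%. Whole libraries stood at 24.1% ± 2.36 at 12 h and at 1.13% ± 0.199 at 0 h (SD, n = 3 each).

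By CpGs per read, the members lay furthest below other genes in percentage points on reads with 4 to 7, while the ratio of observed to expected calls at 12 h was 0.744 on reads with 1 to 3 CpGs, 0.286 on those with 4 to 7 and 0.254 on those with 8 or more. On reads with 1 to 3 CpGs the 12 h libraries had 18.9, 15.9 and 23.7% undeaminated, where 24.2, 25.3 and 26.4% were expected. On reads with 4 to 7 CpGs they had 9.84, 2.52 and 3.13%, where 19.1, 21.3 and 23.1% were expected. On reads with 8 or more CpGs they had 1.67, 0.324 and 8.47%, where 5.04, 7.02 and 8.02% were expected. The members were below the expected level in all 3 libraries in the first and the middle class, and in A and B but not in C in the densest. In that class 12 h C had 5 of 59 calls undeaminated, and 4 of these 5 were on a single Rpl15 read. The deviation at 12 h minus that at 0 h was -6.32 points on reads with 1 to 3 CpGs and -14.9 points on reads with 4 to 7 (two-sided exact permutation p = 0.1 and 0.188 adjusted for each, no overlap). On reads with 8 or more CpGs it was -2.42 points with overlapping libraries (exact permutation p = 0.4, 0.4 adjusted), and without 12 h B it was -0.678 points and without 12 h C -4.26 points.

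In the finer classes, pooled over the 12 h libraries, 14 of 60 calls were undeaminated on reads with a single CpG, where 25.5% were expected. This was 23.3% (14.4 to 35.4%), close to the expected level. In percentage points the gap was widest on reads with 4 or 5 CpGs, where 7 of 138 calls (5.07%, 2.48 to 10.1%) were undeaminated and 21.7% were expected. Reads with 8 to 10 CpGs had 2 of 165 (1.21%, 0.333 to 4.31%), with 10.2% expected, the lowest ratio to expected of the 7 classes (0.119), and reads with 11 or more had 7 of 383 (1.83%, 0.888 to 3.72%), with 4.89% expected. At 0 h the only undeaminated call among 304 stood on a read with 2 CpGs. Among reads with at least 2 calls inside the members at 12 h, 0 of 162 were undeaminated throughout. These were 70 reads with 2 or 3 such calls, 50 with 4 to 7 and 42 with 8 or more. In genes of like length 8.60% of reads with 2 or 3 such calls were undeaminated throughout, 2.01% of those with 4 to 7 and 0.172% of those with 8 or more. Such reads are thus rare in the denser classes of other genes too.

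**Figure D2:**
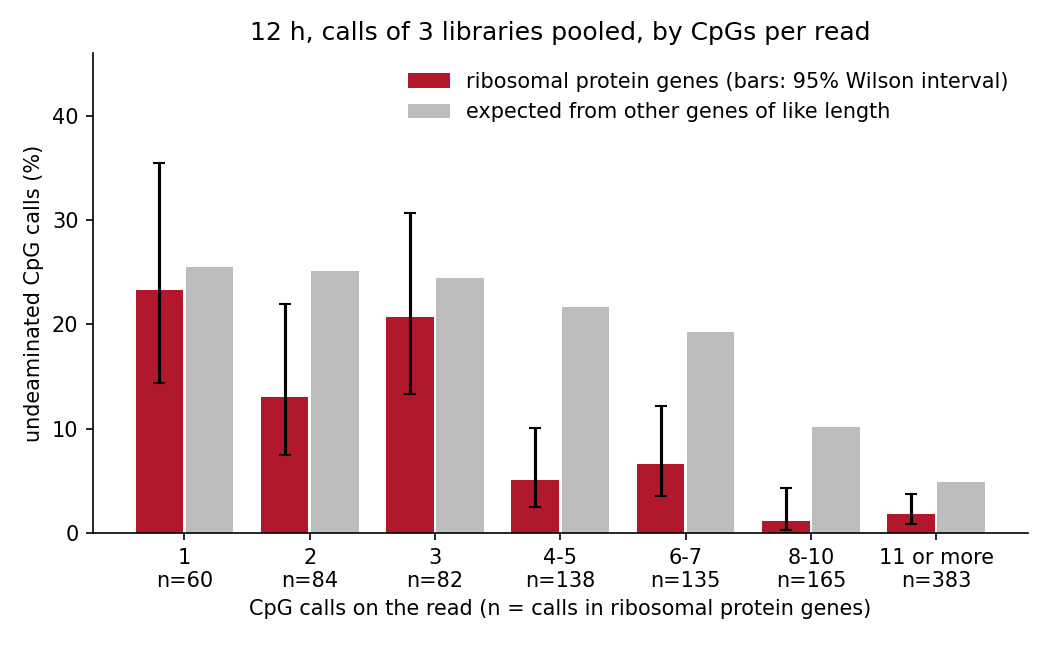
Undeaminated CpG calls at 12 h in percent (vertical axis), with the 3 libraries pooled, by the number of CpG calls on the read (horizontal axis); red bars are ribosomal protein genes with 95% Wilson intervals and grey bars the level expected from other genes of like length. Red and grey are close at a single CpG (23.3 and 25.5%) and far apart at 4 or 5 (5.07 and 21.7%).

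Position along the gene was read for the 66 members whose strand is known from RefSeq. The gene start is the upstream edge of the span, which can lie over 1 kb from a RefSeq promoter. Promoter-window calls of Rpl19 and Rpl22 at 12 h, none undeaminated, were thus counted as elsewhere. Within 1 kb of the gene start the 12 h libraries A, B and C had 2 of 172 (1.16%), 5 of 298 (1.68%) and 4 of 67 (5.97%) calls undeaminated, and farther along the gene or past its end 24 of 131 (18.3%), 11 of 106 (10.4%) and 5 of 19 (26.3%). The 4 undeaminated calls near the start in 12 h C were all in Rpl15, on 1 read that also lay in the widened span of Nkiras1. Every 12 h library was thus lower near the start than elsewhere. The start-minus-elsewhere difference averaged -15.4 ± 6.02 points at 12 h and -0.980 ± 1.70 points at 0 h (SD, n = 3 each). The 12 h minus 0 h contrast of -14.4 points had p = 0.1 in a two-sided exact permutation test (0.188 adjusted). With 0 of 144 calls near the start and 1 of 84 elsewhere undeaminated at 0 h, the untreated difference had little room to be large. The contrast was not weighted to CpGs per read. At 12 h reads with 8 or more CpGs held 65.7% of member calls near the start and 19.5% elsewhere. Other genes of like length had the same order, with 9.04% near the start and 24.3% elsewhere in the pooled 12 h calls.

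Finer positions showed a trough that began before the start and reached past it. In the 500 bp before the start 3 of 130 calls were undeaminated at 12 h (2.31%), in the 500 bp after it 6 of 275 (2.18%), and in the next 500 bp 0 of 87, which allows up to 3.45%. Of the 6 calls just after the start, 4 were those of the Rpl15 read in 12 h C. Other genes stood at 7.28, 6.86 and 11.4% in these 3 stretches. From 1 kb onward inside the gene the members had 33 of 202 (16.3%, 11.9 to 22.1%), against 24.4% in other genes, and past the gene end 7 of 54 (13.0%, 6.42 to 24.4%), against 23.9%. At 0 h 0 of 144 calls near the start and 1 of 84 elsewhere were undeaminated, and at 6 h 2 of 244 and 9 of 94.

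**Figure D3:**
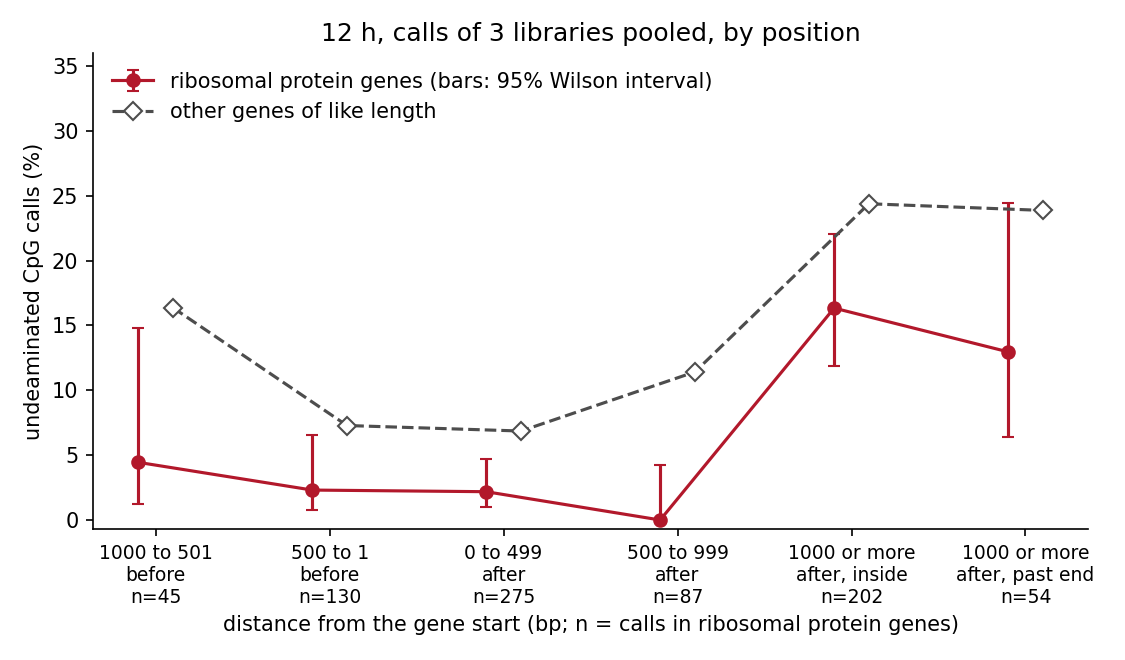
Undeaminated CpG calls at 12 h in percent (vertical axis), with the 3 libraries pooled, by distance from the gene start in bp (horizontal axis); red points are the 66 ribosomal protein genes of known strand with 95% Wilson intervals, and open diamonds other genes of like length. The red points stay at or below 4.44% up to 1 kb after the start and stand at 16.3% farther inside the gene, below the diamonds throughout.

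Position and CpGs per read were then held together. Away from the start, reads with 1 to 3 CpGs had 30 of 118 calls undeaminated in the members at 12 h (25.4%, 18.4 to 34.0%), against 27.0% in other genes. The level of other genes lies inside the member interval there. On reads with 4 to 7 CpGs the members had 8 of 88 away from the start (9.09%, 4.68 to 16.9%), against 26.7%, and 0 of 127 near it (up to 2.36% allowed), against 12.2%. Near the start, reads with 1 to 3 CpGs had 5 of 57 (8.77%, 3.81 to 18.9%), against 21.1%. Reads with 8 or more CpGs held most near-start calls and had 6 of 353 there (1.70%, 0.781 to 3.66%), against 3.98%. Away from the start they had 2 of 50 (4.00%, 1.10 to 13.5%), against 12.9%, which lies inside the member interval. All undeaminated near-start calls of 12 h C stood on the 1 Rpl15 read. With CpG class and position matched, near-start deviations in 12 h A, B and C were -6.49, -5.57 and -3.58 points, a mean of -5.21 ± 1.48 (SD, n = 3), against -1.19 ± 0.389 at 0 h (SD, n = 3). Against genes with CpG-rich promoters only, they were -4.25, -3.46 and -1.28 points. Elsewhere, against all genes of like length, they were -4.48, -14.7 and -2.91 points, a mean of -7.36 ± 6.40 at 12 h against -0.105 ± 1.83 at 0 h (SD, n = 3 each), and 12 h B lay far below A and C. The 12 h minus 0 h contrasts near the start and elsewhere had exact permutation p = 0.1 each, unadjusted, and were chosen after seeing the data.

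In the promoter window itself, from 250 bases before to 50 bases after the start, the member level was close to that of other CpG-rich promoters. No undeaminated call was seen there among 32 calls at 0 h (up to 9.38% allowed) or among 65 at 6 h (up to 4.62%). At 12 h 4 of 145 calls on 22 reads in 16 members were undeaminated (2.76%, 1.08 to 6.88%), 1 of 47 in A, 0 of 72 in B and 3 of 26 in C. Promoters of genes of like length that held at least 15.25 CpGs, the lower quartile of the member promoters, had 2.66% (2.29 to 3.09%), and all promoters of genes of like length had 5.38% (4.92 to 5.89%). The CpG-rich promoters had 1.92% (1.44 to 2.56%) at 0 h and 0.772% (0.495 to 1.20%) at 6 h. Their interval at 12 h thus overlaps that of untreated cells, and a gain in these promoters was not tested. The 3 calls in 12 h C were all in Rpl15, on a single read.

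Large-subunit and small-subunit genes did not differ beyond the spread of the libraries. The 51 Rpl genes had 29 of 298 (9.73%), 9 of 298 (3.02%) and 13 of 102 (12.7%) calls undeaminated in 12 h A, B and C, and the 34 Rps genes 6 of 110 (5.45%), 8 of 212 (3.77%) and 2 of 27 (7.41%). Rpl was higher in A and C and Rps in B. The Rpl minus Rps difference averaged 2.95 ± 3.25 points at 12 h and 0.513 ± 0.888 points at 0 h (SD, n = 3 each), and the contrast of 2.44 points had p = 0.4 in a two-sided exact permutation test (0.4 adjusted). It was 4.29 points without 12 h B and 1.25 points without 12 h C.

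Taken gene by gene, 76 members had a call at 12 h, of which 36 had at least 1 undeaminated call. Of the 37 members with at least 10 calls at 12 h, 15 had none undeaminated, where 13.5% of all 4031 genes of like length with as many calls (members included) had none. The median level of these 37 genes was 2.86%, against 16.7% over the 4031. Only 4 of them (10.8%) reached 20%, against 43.1% of the 4031. Members have more calls per read than other genes, so calls in a single gene come from few reads, and these shares are a description with no test.

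**Figure D4:**
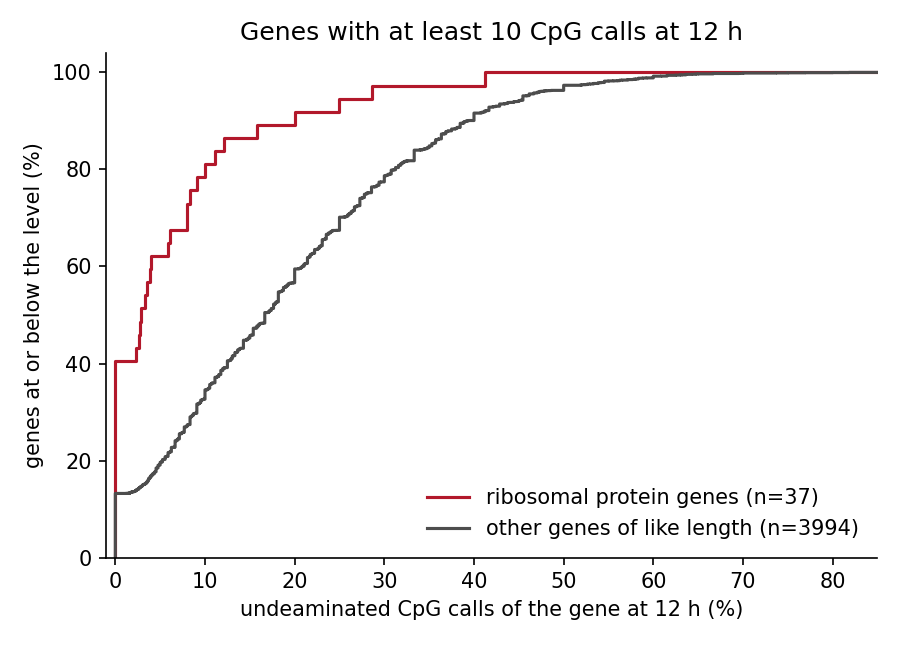
Cumulative share of genes (vertical axis, percent) by their level of undeaminated CpG calls at 12 h (horizontal axis, percent), for the 37 ribosomal protein genes (red) and 3994 other genes of like length (grey) with at least 10 calls. The red curve starts at 40.5% of genes with no undeaminated call, the grey one at 13.2%.

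The large-subunit genes with the most calls had 0 to 4 undeaminated calls each. Rpl10a had 1 undeaminated call of 43 at 12 h, on 6 reads of 3 libraries, and that call lay in the widened span of Tead3 as well. Rpl22, which encodes an RNA-binding protein of the large subunit, had 0 of 39 on 7 reads of 3 libraries. None of its calls lay within 1 kb of the start of its span, and 9 fell in the promoter window of its other RefSeq start. Rpl14 had 1 of 38, Rpl17, whose protein sits near the exit of the peptide tunnel, 1 of 36, and Rpl13a 1 of 30. In the span of Rpl13a without the added 1 kb, 1 of 2 calls was undeaminated, and in those of Rpl10a and Rpl14 0 of 36 and 0 of 18. Rpl4, whose protein lines that tunnel, had 0 of 28, of which 25 lay also in the widened spans of Snapc5 or Zwilch. Rpl36al, a near copy of Rpl36a, had 0 of 28, all shared with the widened span of Mgat2. Rpl15 had 4 of 33, all on 1 read and in the widened span of Nkiras1 too, and Rpl36 had 2 of 33 on 1 of 10 reads, both in calls shared with Lonp1 or Micos13.

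Among the small-subunit genes with the most calls, Rps3a1 had 0 of 43 undeaminated on 3 reads, all from 12 h B, with 41 of these calls within 1 kb of the start. Rps15 had 1 of 35 calls undeaminated and Rps10, a gene mutated in some patients with Diamond-Blackfan anaemia, 1 of 28. In all, 238 of the 1047 member calls at 12 h (22.7%) lay in the widened span of another protein-coding gene as well, in 27 members, and 18 of the 67 undeaminated calls were among them.

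**Figure D5:**
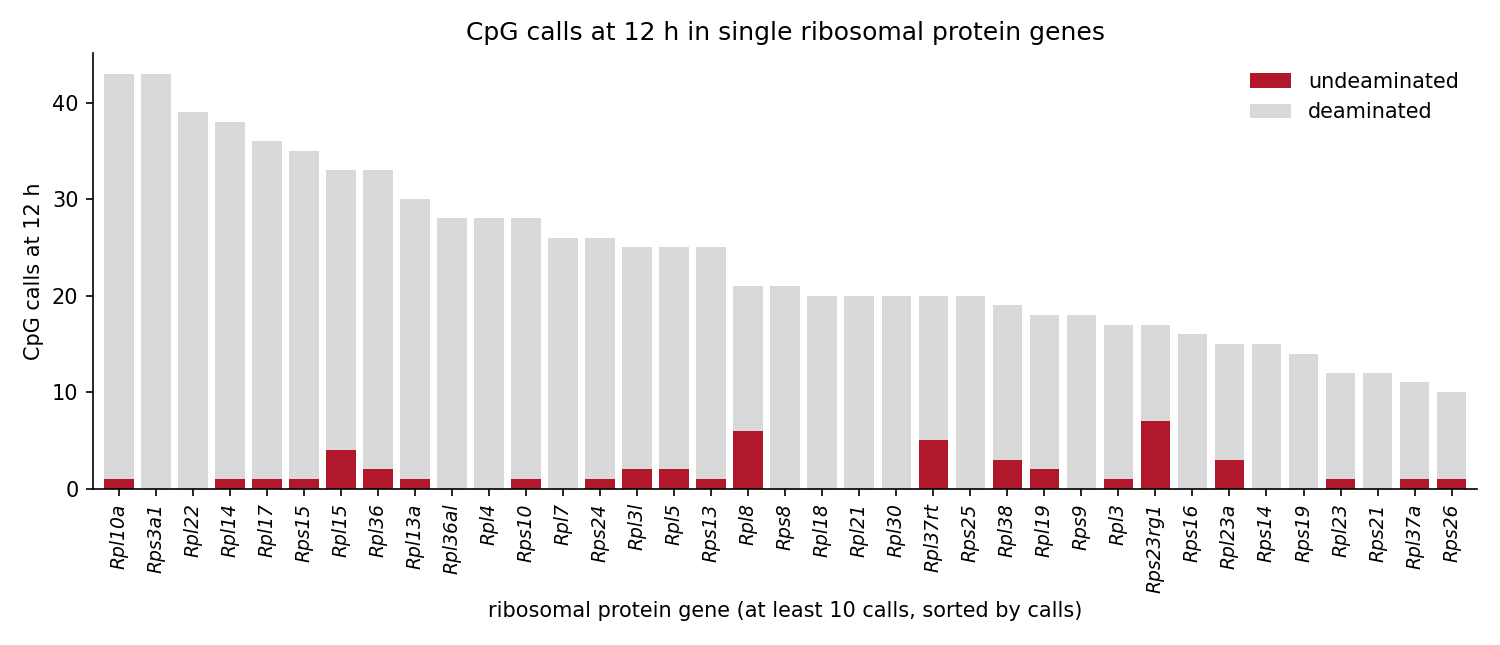
CpG calls at 12 h (vertical axis, count over 3 libraries) in the 37 ribosomal protein genes with at least 10 calls, ordered by calls, with undeaminated calls in red and deaminated calls in grey. Most columns hold 0 or 1 red call, and the tallest red parts are those of Rps23rg1 (7), Rpl8 (6) and Rpl37rt (5).

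A few members carried much of the signal, and they are named here after their values were seen. Rps23rg1, a gene that arose in the mouse lineage by retroposition of Rps23, had 3 of 7, 3 of 9 and 1 of 1 calls undeaminated in 12 h A, B and C (41.2% pooled, 21.6 to 64.0%). These stood on 6 of its 10 reads, and 0 of 4 calls were undeaminated at 6 h and 0 of 10 at 0 h. It has the longest span of the set, 16779 bp (chr8:3567998-3584776), and its promoter window holds 4 CpGs. Rpl8 had 6 of 21 (28.6%, 13.8 to 50.0%), all on 3 reads of 12 h A, and 0 of 30 at 6 h. Rpl38, which in the mouse is known for its role in translation of Hox messages, had 3 of 19, on 3 reads of 12 h A. Rpl23a had 3 of 15, all on 1 read of 12 h A and in the widened span of Tlcd1 too. The 5 members with the most undeaminated calls held 25 of the 67.

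The rule also takes in 11 further genes that are paralogs or retrocopies or, as Rps19bp1, encode a partner of a ribosomal protein. Together with Rps23rg1, these 12 genes had 19 of 102 calls undeaminated at 12 h (18.6%), against 48 of 945 (5.08%) in the other 73 genes. Without Rps23rg1 the 11 had 12 of 85 (14.1%), and both are descriptions with no test. Rps23rg1 was put with the 11 after its value was seen. These levels were not weighted to CpGs per read or gene length, so they have no expected level beside them. Rpl37rt, a retrocopy of Rpl37, had 5 of 20, all on 2 reads of 12 h A. Rpl3l, the striated-muscle paralog of Rpl3, had 2 of 25 on 9 reads. Rpl7l1, a paralog of Rpl7, had 3 of 6 at 12 h and the only undeaminated call at 0 h, 1 of 15. Rpl10l, the testis paralog of Rpl10, had 1 of 1 at 12 h and 2 of 11 at 6 h, and Rps27rt had 1 of 3 at 12 h. Rpl32l and Rps19bp1 had 0 of 1 each at 12 h. The gene table lists 309 ribosomal protein pseudogenes, and how reads that match a gene and its copies were placed is not given in the sources used here, so values of retrocopies and their parents are uncertain. At 6 h, where 18 calls were undeaminated, Rps14 had 4 of 13, Rpl7 3 of 11 and Rps7 2 of 7. At 12 h Rps14 had 0 of 15 and Rpl7 0 of 26.

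Other genes of the translation machinery were set beside the members, by lists. Those whose products are part of the ribosome but whose symbols fall outside the rule (7 genes, such as Fau, Rplp0 and Rack1) had 6 of 109 calls undeaminated at 12 h (5.50%), where genes of like CpG class had 14.7%. Of these, Fau had 0 of 21, Rack1 0 of 21 and Rpsa 4 of 17. Elongation factors (6 genes) had 20 of 183 (10.9%, with 14.0% expected), and initiation factors (29 genes) 108 of 591 (18.3%, with 17.5% expected). Ribosome biogenesis factors (20 genes) had 127 of 503 (25.2%, with 20.2% expected). Mitochondrial ribosomal proteins (78 genes), which serve the separate ribosome of that organelle, had 216 of 1286 (16.8%, with 18.7% expected), and the median over the 45 genes with at least 10 calls was 12.9%. By the same CpG-class weighting alone, the members had 6.40% where 16.2% was expected. The cytosolic ribosomal proteins, inside and outside the symbol rule, thus gave the lowest pooled levels of the 6 lists. The spans of the lists differ (medians of 3175 bp for the members, 7691 bp for mitochondrial ribosomal proteins and 19178 bp for initiation factors), and differences between lists were not tested.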

How the data were processed

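The authors deposited a call letter (undeaminated or deaminated) for each CpG on each read, written by version 0.22.3 of Bismark's methylation extractor, per the file headers. The build GRCm38 and the tools Bismark 0.22.3 and Trim Galore are named, without roles, per the submitters' processing notes. Settings and the handling of duplicates and of reads with several matches: not given in the sources used here. Each library was made from 10 ng of DNA in fragments of about 300 bp and read in 3 runs of 150 bp, per the labels' protocols.

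Groups and replicate letters came from the sample titles. Spans came from the RefSeq gene table of GRCm38.p6, and strand and promoters from the RefSeq promoter table. Calls within 1 kb of a span were counted with Python 3.11.15, pandas 2.3.3 and numpy 2.4.6. Expected levels used 7 classes of CpGs per read and 7 of gene length, and fell back to the CpG class where genes of like length had under 20 calls. Near-start and elsewhere deviations were weighted by CpG class only. The method was tried on simulated data in which each call was drawn independently. That check does not cover the dependence of calls on the same read. Tests were exact permutation tests over libraries, two-sided, with a threshold of 0.05, and 95% Wilson intervals came from scipy 1.17.1. Named genes were the 12 members with the most calls at 12 h and the paralogs. Members and lists were chosen with earlier results of these data known. The comparison with CpG-rich promoters, position matching and leaving out Rps23rg1 were chosen after seeing the data. Libraries were not paired by letter in the main tests. Over 1203 windows of 1 Mb, r between same-letter 12 h and 0 h libraries was at most 0.0517. Untreated libraries hold few undeaminated calls, so a low r cannot tell whether libraries of the same letter belong together.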

Additional observations from a re-analysis of the deposited data

How the results depend on the processing

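The level and the deviation of ribosomal protein genes kept their direction, 12 h against 0 h, under every alternative run. The level difference ran from 5.48 to 11.3 points over alternatives in percent and from 5.64 to 9.79 with single libraries left out. Over alternatives in percent, the deviation difference ran from -9.35 (1 call per read) and -10.2 (no weighting) to -3.62 (CpG-rich promoters with distance to the gene end). It ran from -7.19 to -4.99 with single libraries left out, and on the logit scale it was only -0.162. Within the 3 sequencing runs, with libraries pooled, the level difference was 5.48, 5.80 and 6.83 points and the deviation difference -5.78, -6.77 and -7.65. These rest on 4 of 73, 33 of 569 and 30 of 405 undeaminated calls at 12 h, and 0 of 15, 0 of 116 and 1 of 173 at 0 h. The runs read the same libraries, so they are not replicates. The letter as a replicate block left the level difference at 7.53 and the deviation difference at -6.44 (exact sign-flip p = 0.25, the smallest possible), and gave 3.17 and 1.06 for 6 h against 0 h. Without paralogs, Rps19bp1 and Rps23rg1 the deviation difference was -6.80. The trend of the deviation over hours (Pearson's r = -0.769, exact permutation p = 0.0357, 0.179 adjusted; Spearman's rho = -0.567, p = 0.175, 0.25 adjusted) ran from -0.826 to -0.608 without pairs of libraries, with exact p of 0.1 to 0.333. That of the level ran from 0.737 to 0.982 over the same pairs, with exact p of 0.0222 to 0.0667. The cause was not tested. Members without an undeaminated call numbered 15 of 37 at a minimum of 10 calls, 26 of 56 at 5 and 10 of 24 at 20. These are 40.5, 46.4 and 41.7%, against 13.5, 16.9 and 10.7% of all genes of like length, members included. Depth limits single genes: the median member had 8 calls at 12 h, and no library level at 0 h rests on more than 1 undeaminated call. With 1 call per read, the levels of 8 named genes moved by more than their counting interval. With spans not widened those of 3 did: Rpl13a stood at 50% (1 of 2 calls) and Rpl10a and Rpl14 at 0.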
